A study of Mus musculus with 24 samples.

Results

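The myelin genes described here are 9 genes that mark the myelin sheath of the central nervous system, Mbp, Mobp, Mog, Mag, Cnp, Cldn11, Mal, Opalin and Ugt8a. They were chosen by symbol, and all 9 were found among the 53379 genes of the count table and among the 37598 genes that passed the filter on low counts. Adult male C57/BL6N mice received an injection of kainic acid (70 nl, 20 mM) into the deep cortex above the right hippocampus, which elicits status epilepticus, and the sham mice (SH) received saline under the same anaesthesia and analgesia. Mice of the kainic acid group (KA) without convulsive seizures had been left out by the study. Right hippocampi were taken 24 hours later. Each treatment gave 3 pools of tissue, of which pool 1 came from 4 mice and pools 2 and 3 from 2 mice each. The nuclei of each pool were stained for NeuN, a neuronal nuclear protein, and sorted into NeuN+ nuclei (neurons) and NeuN- nuclei (glia), which gave 12 mRNAseq libraries in 4 groups of 3: SH glia, KA glia, SH neurons and KA neurons. The mice had been bought at 8 weeks of age and kept for 4 weeks before use, no transgene is named for them, and the values are those of pooled nuclei and not of single animals or whole cells.

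Myelin is a spiral of oligodendrocyte membrane around axons. Its inner faces are fused by basic proteins, its outer faces are held together by proteolipids and adhesion proteins, and its membrane is rich in galactolipids. Mature oligodendrocytes make these components under the transcription factors SOX10, OLIG2 and MYRF, and their precursors (OPC) express other genes. Schwann cells make the myelin of peripheral nerves with a partly different set of proteins. The comparison of KA with SH addressed gene expression in the early phase after status epilepticus, separately in neurons and in glia.

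Promoters of 8 of the 9 genes were matched in RefSeq on GRCm38.p6, as windows of 300 bases from 250 bases before to 50 bases after a transcription start. They were searched on both strands for ACAAAG and ACAATG (the SOX10 type), CTGGCAC and CTGGTAC (MYRF) and CAGCTG (an E-box of the OLIG2 type, which reads the same on both strands). The 4 promoters shown belong to the members with the largest difference between KA and SH glia (Mal and Cnp), the smallest (Opalin) and the one with most matches (Mobp). Capitals mark every match, and each sequence runs 5′ to 3′ on the strand of its gene. The windows are chr11:100574689-100574988 (+ strand) for Cnp, chr2:127656646-127656945 (- strand) for Mal, chr19:41077064-41077363 (- strand) for Opalin and chr9:120149492-120149791 (+ strand) for Mobp.
Cnp: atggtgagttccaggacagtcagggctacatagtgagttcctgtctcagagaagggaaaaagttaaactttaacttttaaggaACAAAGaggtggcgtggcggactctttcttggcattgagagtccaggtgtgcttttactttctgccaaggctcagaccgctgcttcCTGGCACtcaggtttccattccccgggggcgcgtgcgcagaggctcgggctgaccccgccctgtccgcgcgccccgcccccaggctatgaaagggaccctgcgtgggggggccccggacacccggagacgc
Mal: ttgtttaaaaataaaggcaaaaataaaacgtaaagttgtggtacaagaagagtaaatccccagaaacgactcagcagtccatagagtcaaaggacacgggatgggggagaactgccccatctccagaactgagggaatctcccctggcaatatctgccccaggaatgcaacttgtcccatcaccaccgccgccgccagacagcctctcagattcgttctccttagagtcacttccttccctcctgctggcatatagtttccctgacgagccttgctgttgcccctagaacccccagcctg
Opalin: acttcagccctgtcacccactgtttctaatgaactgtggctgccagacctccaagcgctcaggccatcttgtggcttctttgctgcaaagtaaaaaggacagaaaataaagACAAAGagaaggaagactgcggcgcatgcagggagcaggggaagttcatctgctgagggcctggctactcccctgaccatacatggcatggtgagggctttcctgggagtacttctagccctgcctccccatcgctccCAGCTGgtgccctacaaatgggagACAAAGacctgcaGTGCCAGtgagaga
Mobp: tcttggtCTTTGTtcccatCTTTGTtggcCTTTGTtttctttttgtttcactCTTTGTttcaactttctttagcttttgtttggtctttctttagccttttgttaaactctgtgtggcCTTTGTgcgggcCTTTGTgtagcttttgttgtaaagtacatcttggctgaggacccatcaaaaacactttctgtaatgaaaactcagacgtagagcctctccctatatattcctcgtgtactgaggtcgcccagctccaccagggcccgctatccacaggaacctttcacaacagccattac
The Cnp window held ACAAAG, 167 bases before the start, and CTGGCAC, 81 bases before it. The Mobp window held 6 copies of ACAAAG, all on the opposite strand (read as CTTTGT) and within 243 to 120 bases before the start. The Opalin window held 2 copies of ACAAAG, 1 CTGGCAC on the opposite strand and 1 CAGCTG, and the Mal window held none of the motifs. Of the members not shown, 2 of the 3 Mag windows held ACAAAG and CTGGCAC. These 2 windows overlap, and the matches are the same sites in both. The Mog window held CTGGTAC, and the Cldn11 and Ugt8a windows held none. Over all 32851 promoter windows, ACAAAG was found in 18.7%, ACAATG in 12.6%, CTGGCAC in 5.01%, CTGGTAC in 2.24%, CAGCTG in 16.3%, and at least 1 of them in 44.5%. The genes of these 4 windows span chr11:100574904-100591729 (Cnp), chr2:127633226-127656695 (Mal), chr19:41061710-41077113 (Opalin) and chr9:120149707-120181484 (Mobp) in the GENCODE annotation of the same genome. A match of letters is a description of the sequence and was not tested as a binding site.

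Total counts ranged from 7769400 to 40364768 per library. Expression is given as CPM, the count of a gene scaled to a fixed library size, after TMM normalization. A difference is given as logFC, the log2 fold change of KA over SH, and was called at a false discovery rate (FDR) below 0.25. The 2 low-input libraries were amplified from about 0.05 ng RNA with 15 PCR cycles instead of 1 ng with 10 cycles, SH glia of pool 1 and KA glia of pool 2. The 4 libraries of replicate number 3 stood apart by their TMM factors, from 0.663 to 0.846 against 0.930 to 1.55 in the others. In glia and in neurons, KA and SH libraries of the same number deviated from their group means together. Each difference was therefore also fitted with a term for that number in each fraction (the replicate block). The study does not describe the pools as paired. Libraries of different numbers were not compared in this way, and number 3 standing apart can by itself make the other numbers deviate together. The check therefore cannot show that the pools pair, and calls made only with the block rest on an assumed pairing.

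All 9 myelin genes were glial in these sorted nuclei. Their logFC of NeuN- over NeuN+ nuclei lay between 4.03 (Mbp) and 5.22 (Cldn11), a 16.4-fold and a 37.3-fold higher level, and all 9 passed an FDR of 0.05, where 6.91% of the genes tested were called higher in NeuN- nuclei (edgeR's quasi-likelihood test). In glia every member was covered by at least 1160 reads in each library, and in neurons by at least 13. The summed CPM of the 9 genes was 11114, 7178 and 14289 in SH glia, 4890, 3788 and 7679 in KA glia, 170.7, 243 and 708 in SH neurons and 109.5, 254 and 432 in KA neurons. Thus 1 KA glia library, that of pool 3, lay above the lowest SH glia library.

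**Figure D1:**
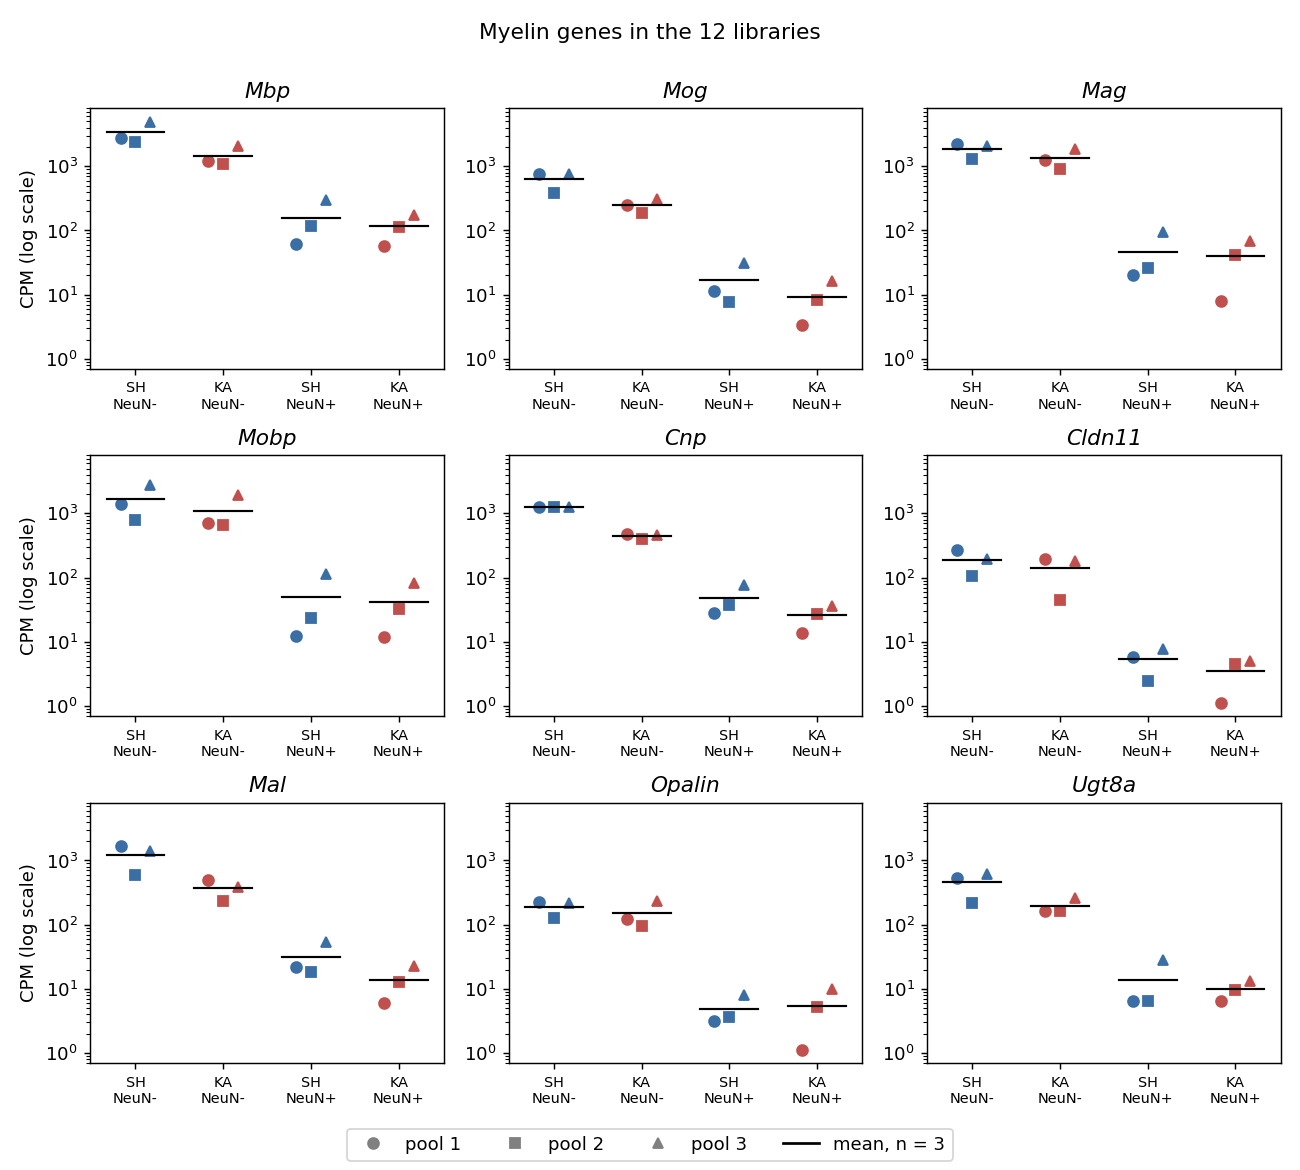
CPM on a log scale (vertical axis) of each of the 9 myelin genes in the 12 libraries, grouped by treatment (SH blue, KA red) and nuclear fraction; symbols give the pool and black lines the mean of 3 pools. For each gene every NeuN- library lies above every NeuN+ library, and in NeuN- nuclei Cnp has the narrowest groups, 1242 to 1278 CPM in SH and 396 to 478 CPM in KA.

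Per kilobase of exon, the level in SH glia was highest for Mag, with a median of 512 CPM per kb, followed by Mal (508), Mog (445), Cnp (345), Mbp (322), Mobp (205), Ugt8a (120), Cldn11 (104) and Opalin (73.5). The ranges of every 2 neighbours in this order overlapped. The spread between SH pools differed among the members, from 341 to 351 CPM per kb for Cnp to 113.5 to 403 for Mobp.

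In glia 24 hours after kainic acid, Mbp, Mog, Cnp, Mal and Ugt8a fell with the replicate block, 5 of the 9 myelin genes, where 4.17% of all genes were called lower. Their levels were between 2.23-fold (Ugt8a) and 3.14-fold (Mal) lower in KA than in SH glia. Mobp, Mag, Cldn11 and Opalin did not pass the test, and without the block 0 of the 9 did, where 0.747% of all genes were called in either direction. All 9 logFC were below 0, and whether the members differed from one another was not tested. The genes that fell encode proteins of the compact sheath, of its surface and of its cytoplasmic channels and a lipid enzyme.

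Mbp and Mobp are basic proteins of compact myelin. Mbp, the myelin basic protein that fuses the inner membrane faces, was at 2727, 2432 and 4976 CPM in SH glia and at 1205, 1094 and 2064 CPM in KA glia. All 3 KA libraries lay below all 3 SH libraries, and the means were 3378 ± 1392 and 1454 ± 531 CPM (SD, n = 3). The logFC was -1.22 (SE 0.61, FDR 1.0), and -1.20 (SE 0.23, FDR 0.00509) with the replicate block. Mobp, a smaller basic protein of oligodendrocyte myelin, was at 1402, 777 and 2762 CPM in SH glia and at 718, 663 and 1918 CPM in KA glia. Its groups overlapped, since the KA library of pool 3 was higher than 2 SH libraries, and its logFC was -0.58 (SE 0.80), with an FDR of 0.298 under the replicate block. In bulk nuclei, fewer oligodendrocyte nuclei and less RNA of these genes per nucleus cannot be told apart, here and in every result below.

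Mog and Mag are immunoglobulin-type proteins, Mog on the outer surface of the sheath and Mag on the membrane that faces the axon. Mog was at 758, 388 and 763 CPM in SH glia and at 252, 186 and 313 CPM in KA glia, with no overlap. Its logFC was -1.35 (SE 0.57, FDR 0.895), and -1.31 (SE 0.28, FDR 0.0112) with the replicate block. Mag was at 2234, 1283 and 2083 CPM in SH glia and at 1254, 909 and 1863 CPM in KA glia. The groups of Mag overlapped, and its logFC of -0.48 (SE 0.68) was not called in either fit (FDR 0.510 with the replicate block).

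Cnp, a phosphodiesterase of the cytoplasmic channels of the sheath, had the tightest groups. It was at 1278, 1242 and 1257 CPM in SH glia and at 478, 396 and 460 CPM in KA glia, so that each KA library lay far below every SH library and the pools of a group hardly differed (1259 ± 18.2 and 444.5 ± 43.0 CPM, SD, n = 3). The logFC was -1.50 (SE 0.46, FDR 0.415), and -1.51 (SE 0.23, FDR 0.000948) with the replicate block, a 2.84-fold lower level. An overlap with exons of Dnajc7 on the opposite strand covers 4.23% of the exon bases of Cnp, and the counting ignored the strand.

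Mal, a small proteolipid of lipid-rich membrane domains, had the largest difference. It was at 1677, 604 and 1411 CPM in SH glia and at 506, 237 and 386 CPM in KA glia, without overlap, and its logFC was -1.71 (SE 0.57, FDR 0.553), and -1.65 (SE 0.25, FDR 0.00111) with the replicate block. Cldn11, the claudin of the tight junctions between myelin layers, was at 273, 104.9 and 195 CPM in SH glia and at 193, 44.4 and 179.8 CPM in KA glia. Its groups overlapped, its logFC was -0.46 (SE 0.58), and its FDR with the replicate block was 0.507. Without the 2 low-input libraries the logFC of Cldn11 was 0.11, so that even its direction depended on them.

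Opalin, a membrane glycoprotein of central oligodendrocytes, was at 222.5, 129 and 216.5 CPM in SH glia and at 124, 95.6 and 236 CPM in KA glia. The highest of the 6 libraries was a KA library, and the logFC of -0.32 (SE 0.57) was the smallest of the 9 (FDR 0.650 with the replicate block). Ugt8a, the transferase that makes galactocerebroside, was at 542.5, 219 and 626 CPM in SH glia and at 161, 163 and 259 CPM in KA glia. Only the SH library of pool 2 lay within the KA range. The logFC of Ugt8a was -1.25 (SE 0.56, FDR 0.981), and -1.15 (SE 0.30, FDR 0.0427) with the replicate block.

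The count of 0 without the block is that of edgeR's quasi-likelihood test. At an unadjusted p below 0.05 there were 4 (Mog, Cnp, Mal and Ugt8a), and DESeq2 called 3, limma-voom 1 and the edgeR 4 form of the test 1. The 5 genes that fell with the replicate block also passed an FDR of 0.05, where 1.48% of all genes were called lower. Without the 4 libraries of number 3, the blocked fit called 3 of these 5, Mbp (FDR 0.185), Cnp (0.104) and Mal (0.179). All 9 logFC were below 0, with a median of -1.22 against 0.14 over all genes. For 4 members, Mbp, Mog, Cnp and Mal, all KA glia libraries lay below all SH glia libraries, which held for 3.00% of all genes.

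**Figure D2:**
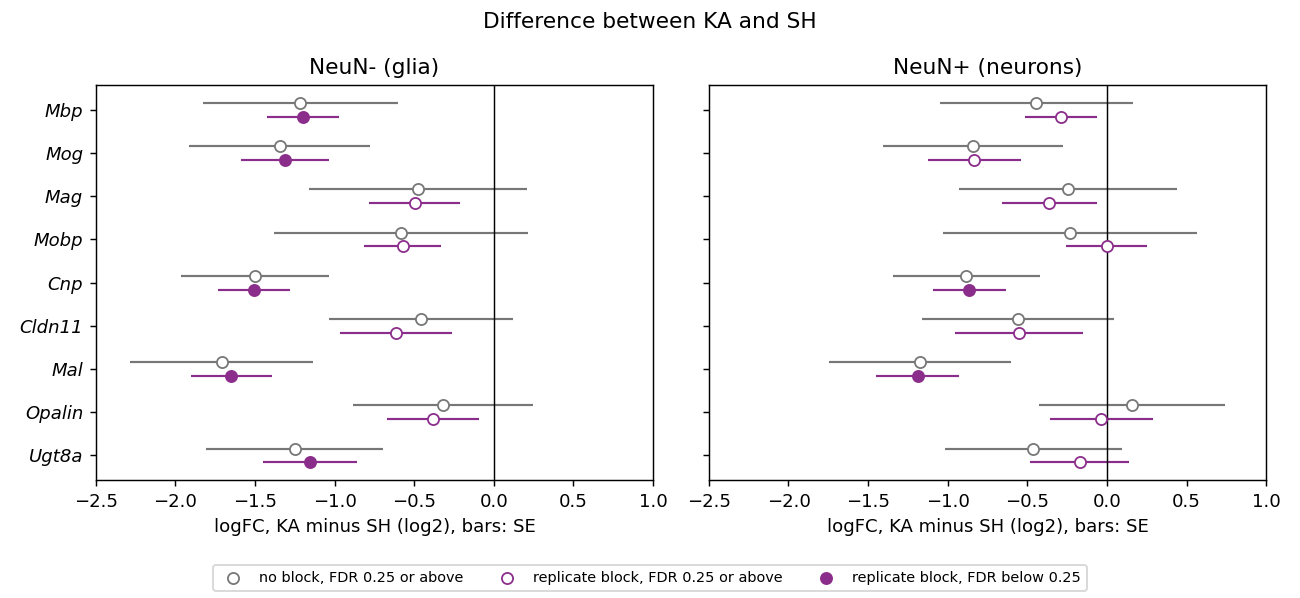
The logFC of KA over SH (horizontal axis, log2; bars are SE) of each myelin gene in glia (left) and neurons (right), without a block (grey) and with the replicate block (purple); filled circles have an FDR below 0.25. In glia Mbp, Mog, Cnp, Mal and Ugt8a are filled under the block, and in neurons Cnp and Mal.

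Scaling shifted all genes of a library. The median logFC of all genes in glia was 0.14 with TMM and 0.42 with library size alone, and the median of the 9 members was -1.22 and -0.96. Relative to the median of all genes, the members' median was -1.36 and -1.38, and the highest member lay at -0.46 and -0.56.

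Pair by pair, 26 of the 27 log2 ratios of a KA glia library to the SH glia library of the same number were below 0, and 8 of 9 members were lower in 3 of 3 pairs, which 14.3% of all genes were. The ratios of Mbp were -1.18, -1.15 and -1.27 for numbers 1, 2 and 3, and those of Cnp were -1.42, -1.65 and -1.45. These were the 2 most even members, with spreads of 0.12 and 0.23. Ugt8a was the least even, at -1.75, -0.43 and -1.27. Those of Cldn11 were -0.50, -1.24 and -0.12. The single ratio above 0 was that of Opalin in number 3, at 0.12, after -0.85 and -0.43 in numbers 1 and 2.

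**Figure D3:**
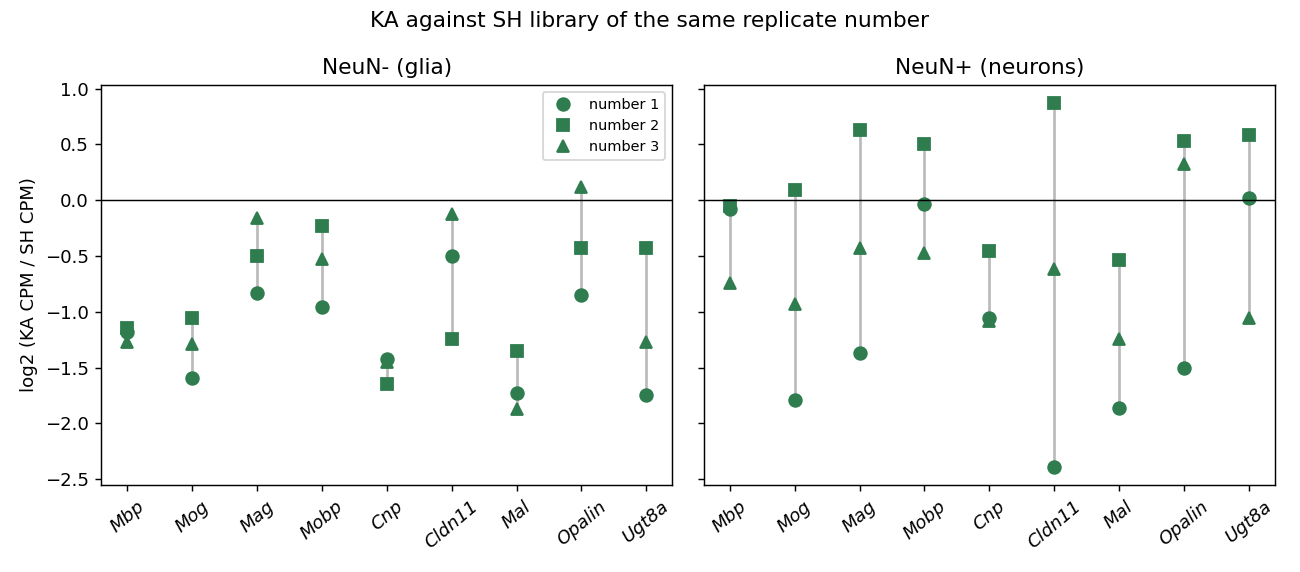
The log2 ratio of KA to SH CPM (vertical axis) for libraries of the same replicate number, for each myelin gene in glia (left) and neurons (right); symbols give the number and grey lines the spread. In glia 26 of 27 ratios are below 0, and in neurons 19 of 27 are, with spreads of up to 3.26 (Cldn11).

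Relative to the mean log2 level of the 9 members in the same library, 3 of 9 members had KA and SH values that did not overlap in glia. Mog was lower and Mag and Opalin were higher in KA in this measure. In neurons 1 of 9 did not overlap (Mal lower). No share over all genes was computed for this measure, so these counts are description only. A fall of some members raises the others here, and the mean CPM of Mag and Opalin was lower in KA glia than in SH glia. The ratio of Opalin to Cnp, which no scaling of a library can change, was 0.174, 0.104 and 0.172 in SH glia and 0.259, 0.241 and 0.512 in KA glia, so that each KA value exceeded each SH value. The ratio of Mag to Cnp was 1.75, 1.03 and 1.66 in SH glia and 2.63, 2.29 and 4.05 in KA glia. Both pairs of genes were chosen after their values were seen, so no test is given. Across the 6 NeuN- libraries, Pearson's r of log2 CPM between 2 members ranged from 0.397 (Mobp and Cnp) to 0.971 (Mag and Opalin), with a median of 0.806 over 36 pairs, over 3 SH and 3 KA libraries, so that the difference between the treatments enters every r.

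In neurons the myelin genes were at 1.11 to 295 CPM. Mbp was at 61.3, 117 and 295 CPM in SH neurons and at 58.0, 113 and 177 CPM in KA neurons. Cnp was at 28.2, 37.7 and 77.1 CPM in SH neurons and at 13.5, 27.5 and 36.4 CPM in KA neurons, and Mal at 21.7, 18.4 and 53.8 and at 5.98, 12.7 and 22.8 CPM. The KA and SH neurons overlapped for all 9 members, while 4.45% of all genes had every KA library below every SH library. Without the block 0 of the 9 were called by edgeR's quasi-likelihood test, and 0.340% of all genes were. At an unadjusted p below 0.05 there were 0, and DESeq2, limma-voom and the edgeR 4 form called 0.

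With the replicate block Cnp (logFC -0.86, SE 0.23, FDR 0.0779) and Mal (logFC -1.19, SE 0.26, FDR 0.0259) fell in neurons, 2 of 9, where 1.11% of all genes were called lower. Without the libraries of number 3 the blocked fit called 0 of the 9 (Cnp FDR 1.0, Mal FDR 0.638), without those of number 1 it called Mal alone, and without those of number 2 it called 5. In the same neuronal libraries 1 of 10 astrocyte genes, Aldoc (logFC -1.21, FDR 0.0250), and 1 of 10 microglial genes, Siglech (logFC -1.47, FDR 0.0274), fell with the block, and the summed CPM of the astrocyte genes was 288 to 1017 in SH and 290 to 643 in KA neurons. Their part in the values of Cnp and Mal was not tested. In 3 of 3 pairs Mbp, Cnp and Mal were lower, as were 13.8% of all genes. Opalin had a logFC of 0.16 (SE 0.58) without the block and -0.03 with it.

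The level of a member in neurons was a few percent of its level in glia of the same pool. The median over the 9 genes was 1.42%, 2.92% and 4.12% in SH pools 1, 2 and 3 and 1.32%, 5.41% and 5.15% in KA pools 1, 2 and 3. It was lowest in pool 1 of both treatments, and the treatments overlapped. Mbp had the highest percentage in 5 of the 6 pools, from 2.25% to 10.3%, and Cnp in SH pool 3, at 6.13%. Neuronal genes were found in NeuN- nuclei as well, with Slc17a7, the vesicular glutamate transporter, at 42.0, 286 and 403 CPM in SH glia and 41.1, 149 and 318 CPM in KA glia. Whether the counts of myelin genes in NeuN+ libraries come from neuronal nuclei, oligodendrocyte nuclei or free RNA was not tested.

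**Figure D4:**
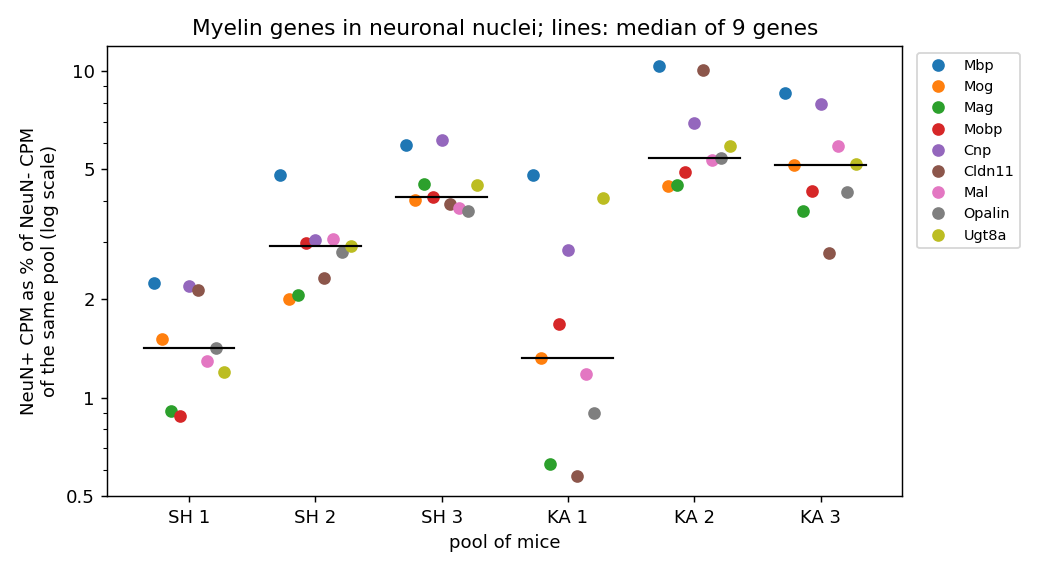
NeuN+ CPM as a percentage of the NeuN- CPM of the same pool (vertical axis, log scale) for each of the 9 myelin genes (colours) in the 6 pools; black lines are the median of 9 genes. The medians run from 1.32% to 5.41%, and pool 1 of both treatments is lowest.

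The difference between KA and SH was itself compared between the fractions. The logFC in glia minus that in neurons ranged from -0.79 (Ugt8a, SE 0.78) to 0.10 (Cldn11, SE 0.83). For 0 of 9 members it was called, and for 0% of all genes. At an unadjusted p below 0.05 there were 0 members, and DESeq2, limma-voom and the edgeR 4 form called 0. With the pool as a block across the fractions 0 of 9 were called and 0.471% of all genes, and Ugt8a had a difference of -0.98 (SE 0.43, unadjusted p 0.0370 by edgeR's quasi-likelihood test). A stronger difference in glia than in neurons was therefore not shown for these genes.

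The other genes of the myelin programme were taken from lists of structural partners, lipid enzymes and transcription factors. With the replicate block 6 of 9 structural partners fell in glia, where 4.17% of all genes were called lower, and the list median was -1.03 against 0.14 for all genes. Without the block 0 of the 9 were called by edgeR's quasi-likelihood test (5 at an unadjusted p below 0.05), and without the libraries of number 3 the blocked fit called 0. The blocked counts of the other lists shrank too without number 3, from 3 to 2 for the lipid enzymes, from 2 to 1 for the transcription factors, from 2 to 1 for the newly formed oligodendrocytes, from 3 to 1 for the OPC, from 8 to 3 for the astrocytes from 3 to 2 for the microglia, and from 1 to 0 for the neurons and the pericytes and, in the direction of a fall, for the endothelial cells. Hapln2, a link protein of the matrix at nodes of Ranvier, was at 1846, 803 and 2515 CPM in SH glia and at 838, 770 and 2665 CPM in KA glia, and was not called. Tspan2, Pllp, Ermn and Cntn2 were among those that fell with the block. Of the exon bases of Pllp, 54.15% are shared with a gene on the opposite strand, and the counting ignored the strand.

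Of the lipid enzymes 3 of 6 fell with the block (Aspa, Fa2h and Enpp2). Aspa, which releases acetate from N-acetylaspartate for lipid synthesis, was at 316, 226 and 467 CPM in SH glia and at 101.3, 69.9 and 107.1 CPM in KA glia. It was the 1 lipid enzyme called without the block (logFC -1.86, SE 0.49, FDR 0.235). Of the transcription factors 2 of 8 fell with the block, Olig1 and Olig2, and 0 of 8 without it (1 at an unadjusted p below 0.05). Olig1 was at 862, 569.7 and 1059.6 CPM in SH glia and at 285, 209.9 and 295 CPM in KA glia (logFC -1.63 with the block, FDR 0.00175). Myrf, the factor that switches on myelin genes, was at 382, 671 and 1036 CPM in SH glia and at 456, 381 and 1120 CPM in KA glia, with overlapping groups and a logFC of -0.10 (SE 0.56) that changed sign with library size alone.

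Among markers of newly formed oligodendrocytes 2 of 5 fell with the block, Enpp6 and Gpr17. Enpp6, a choline phosphodiesterase, was at 162.6, 67.0 and 143 CPM in SH glia and at 57.0, 34.8 and 44.2 CPM in KA glia, and was called without the block too (logFC -1.46, SE 0.37, FDR 0.196). Of the OPC genes 3 of 5 fell with the block, Cspg4, Pdgfra and Ptprz1. Cspg4, the NG2 proteoglycan, was at 314, 245 and 315 CPM in SH glia and at 122.5, 75.7 and 123 CPM in KA glia (logFC -1.44, SE 0.38, FDR 0.240 without the block). These unblocked calls of Aspa, Enpp6 and Cspg4 were lost in 5 of the 6 fits that left out 1 glia library, all but the fit without SH glia of pool 2, with an FDR from 0.289 to 1.0. They were also lost without the low-input libraries (FDR 1.0 for each) and without number 3 (FDR from 0.359 to 0.729). The summed CPM of the 5 OPC genes was 1147 to 1690 in SH glia and 539 to 914.5 in KA glia, without overlap.

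Genes of peripheral myelin were low, apart from Pmp22. Prx, a scaffold protein of Schwann cell myelin, was at 0.412 to 2.18 CPM in the NeuN- libraries, and Pmp2, of whose exon bases 86.9% are shared with another gene, at 0 to 0.161 CPM. Pmp22, which glia of the brain also express, was at 103.2, 53.6 and 83.7 CPM in SH glia and at 69.0, 43.2 and 75.4 CPM in KA glia. Ncmap was at 1.07 to 6.52 CPM in glia, and 0 of the 4 peripheral genes tested were called in either fit in glia (edgeR's quasi-likelihood test), with 0 at an unadjusted p below 0.05.

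Markers of other cell types moved in the same NeuN- libraries. Of the astrocyte genes 8 of 10 fell with the block and 1 of 10 (Aldoc, FDR 0.245) without it, where 4.17% of all genes were called lower and 0.747% in either direction. The list median was -1.11, and their summed CPM was 2436 to 3820 in SH glia and 1126 to 2269 in KA glia, without overlap. The astrocyte genes did not all move 1 way. In both fits 9 of the 10 logFC were below 0. The remaining gene was higher in every KA than in every SH glia library, with an FDR of 0.251 under the block. Aldoc, an aldolase of astrocytes, was at 348, 178 and 267 CPM in SH glia and at 132, 46.6 and 55.9 CPM in KA glia. Of the microglial genes 3 of 10 fell, and the summed CPM overlapped, at 1199 to 2695 in SH glia and 957 to 1853 in KA glia. P2ry12 and Siglech, genes of resting microglia, had a logFC of -2.38 (FDR 0.0826) and -2.18 (FDR 0.0295) without the block, the 2 of 10 called there. Aldoc was not called without SH glia of pools 1 or 3 or KA glia of pools 2 or 3 (FDR from 0.372 to 1.0). P2ry12 was not called without SH glia of pool 3 or KA glia of pools 1 or 2 (FDR from 0.371 to 0.503), nor Siglech without KA glia of pool 2 (FDR 0.256). All 3 calls were lost without the low-input libraries (FDR 1.0, 0.823 and 0.295) and without number 3 (FDR 0.718, 0.395 and 0.386). In glia 1 of 10 neuronal genes fell with the block (Snap25), 1 of 7 endothelial genes rose and 1 fell (Tek and Slco1c1), and 1 of 5 pericyte genes fell (Vtn). The summed endothelial CPM was 61.1 to 125 in SH glia and 25.6 to 82.8 in KA glia, but without Slco1c1 it was 30.3, 27.3 and 6.18 in SH glia and 42.7, 37.8 and 19.8 in KA glia, higher in KA in 3 of 3 pairs. The part of these other cell types in the values of the myelin genes was not tested.

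**Figure D5:**
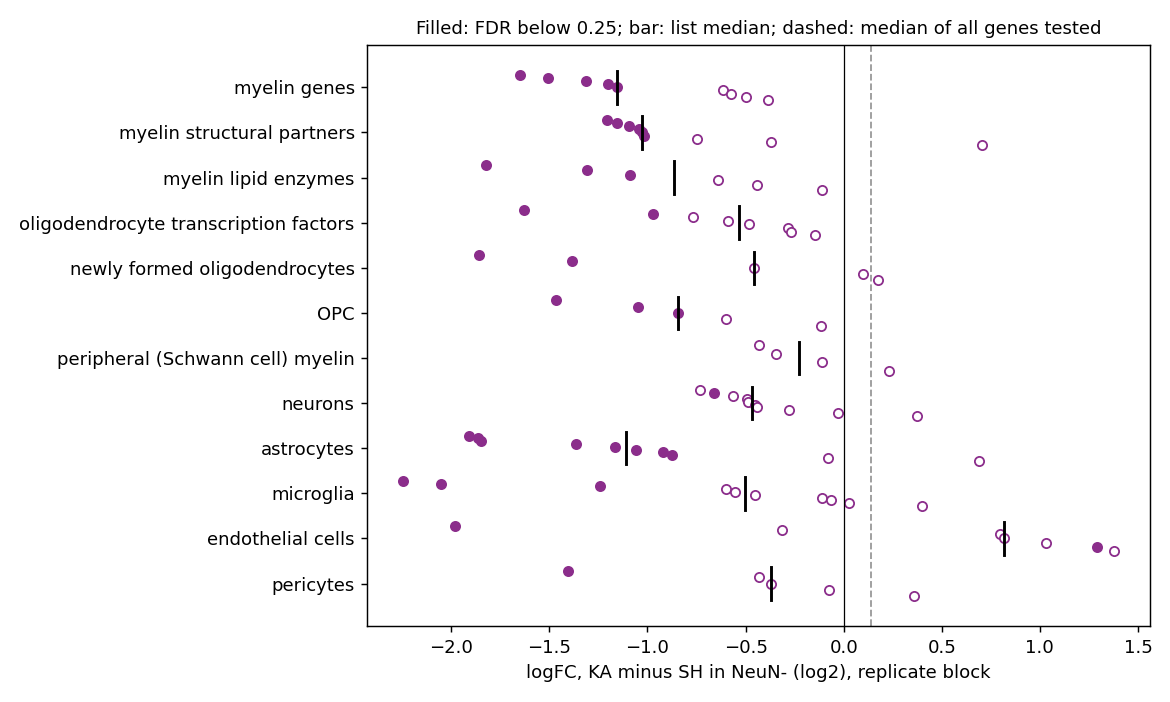
The logFC of KA over SH in glia with the replicate block (horizontal axis, log2) for every tested gene of the myelin genes and 11 other lists; filled points have an FDR below 0.25, black bars are list medians and the dashed line is the median of all genes, 0.14. The medians of the myelin genes (-1.15), structural partners (-1.03) and astrocytes (-1.11) lie lowest, and that of endothelial cells (0.82) highest.

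In the neurons 0 of 9 structural partners, 0 of 8 transcription factors and 0 of 5 OPC genes were called with the block by edgeR's quasi-likelihood test, with 3, 1 and 0 at an unadjusted p below 0.05. Enpp2 fell and Elovl1 rose among the lipid enzymes, and Gpr17 fell among the newly formed oligodendrocyte genes. Of all genes 1.11% were called lower in neurons with the block, and the share called higher is not given here. The blocked calls of Cnp and Mal in neurons were lost without number 3, and no such fit is given for these list genes.

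Over the 6 NeuN- libraries, the 10 genes whose log2 CPM followed the mean of the 9 members most closely, among 11762 genes with at least 10 CPM, were Slc15a4, Cyhr1, Grb14, Matn4, Chpt1, Pigs, Tmem50b, Fbxo2, Prnp and Rin2. Their Pearson's r ranged from 0.993 to 0.998 over the 3 SH and 3 KA libraries. Slc15a4 was at 82.8 to 166.7 CPM in SH glia and at 45.0 to 89.3 CPM in KA glia, and Prnp at 549.7 to 879 and 333 to 521 CPM. None of the 10 was called between KA and SH glia without the block, and neither was any of the 9 members. Their logFC of NeuN- over NeuN+ nuclei ran from -0.60 (Tmem50b) to 3.16 (Matn4), below that of every member, so not all of them were glial. In the same measure the members themselves, each of them part of that mean, had an r of 0.788 (Cldn11) to 0.978 (Mog). Among the 11762 genes these were ranks 2499 and 85, so many other genes followed the mean as closely as the members did. Of the listed transcription factors Myrf had the lowest r, 0.410, and the others lay between 0.763 (Sox10 and Zfp488) and 0.924 (Olig1).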

How the data were processed

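The mRNAseq libraries of 3 KA and 3 SH pools, each sorted into NeuN+ and NeuN- nuclei, were analysed; the bisulfite data were not used here. The authors trimmed reads with Trim Galore 0.4.3, aligned them to mm10 with Rsubread, assigned uniquely mapped reads to genes of GENCODE M16 with featureCounts under default settings and deposited whole-number counts per gene and library, without normalization. Default counting ignores strand and drops reads shared by 2 genes. Amplification was by oligo(dT) priming, and RNA came from nuclei. Which library was read on which sequencer is not given in the sources used here.

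Symbols, positions and exon lengths were taken from GENCODE M21 (53274 of 53379 genes matched; the other 105 were left out). Counts were filtered with filterByExpr (minimum count 10, minimum total 15), scaled by TMM and tested with edgeR 4.0.16 in R 4.3.3 (quasi-likelihood test, legacy=TRUE, 4 group means, all 12 libraries, Benjamini-Hochberg adjustment over 37598 genes), a procedure checked on simulated data with the same design. Thresholds were an FDR of 0.25 between KA and SH and 0.05 between fractions. The SE of a logFC was derived from it and its F statistic. The deviations of KA and SH libraries of the same number correlated across genes at 0.457, 0.543 and 0.764 in glia and at 0.399, 0.264 and 0.551 in neurons. A replicate block was therefore fitted beside the model. Correlations between different numbers were not computed, so this check cannot show that the numbers pair pools, and the labels do not say so. Nothing says that the pools were handled in matched pairs. Results for 3 single genes of the lists are not reported here.

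The members, the 11 gene lists and the motifs were chosen with earlier results of these data known. Named list genes are those called in KA against SH without the block, up to 6 per list, or else the 2 highest in the fraction; the other list genes named were chosen after their values were seen. The genes most like the members were ranked by Pearson's r of log2 CPM (prior count 2). Alternatives were separate fits, other filters, scalings, thresholds and tests (DESeq2 1.42.0, limma 3.58.1), blocks, other gene sets, and libraries left out. Blocked fits with libraries left out were added after the data were seen.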

Additional observations from a re-analysis of the deposited data

Results flagged for a closer look

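Groups of 6 values were searched for a value whose gap to its neighbour was more than 0.625 of the whole range (Dixon's criterion), over the CPM of each member in the 6 NeuN- and the 6 NeuN+ libraries and over its NeuN+ percentage in the 6 pools. Of 27 groups, 3 held such a value. The usual chance rate of about 1 in 20 assumes independent, normally distributed values. These groups mix SH and KA and share libraries, so that rate does not apply to them. Mal stood out at 53.8 CPM and Ugt8a at 27.9 CPM, both in SH neurons of pool 3, the neuronal library with the highest summed CPM of the members (708). Cldn11 in KA pool 2 was at a NeuN+ level of 10.1% of its NeuN- level, where the NeuN- library is a low-input one.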

How the results depend on the processing

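All 9 members were called higher in NeuN- nuclei under every alternative run, and the direction of Mbp, Mog, Mag, Cnp, Mal, Opalin and Ugt8a in glia was the same in every alternative run. The number of members called in glia without the block was 0 and became 3 with at least 10 counts in every library, 2 with upper quartile normalization, 1 with library size alone, 1 with the edgeR 4 form, 3 with DESeq2 and 1 with limma-voom. It became 5 with the replicate block, which also called 2 members in neurons. For the difference and for the fractions the pool was the block instead, and it changed no call of a member. In fits without 1 library the count was 0 in glia and in neurons. Added after seeing the data, the blocked fit called 3 members lower in glia without number 3; in neurons it called 1, 5 and 0 without numbers 1, 2 and 3. The cause of these changes was not tested, although leaving out a number also leaves fewer samples.

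Some logFC changed sign. In glia Cldn11 became 0.11 without the low-input libraries. Myrf became 0.068 with library size alone. Ncmap became 0.24 with separate fits, 0.093 with the stricter filter, 0.063 with upper quartile normalization, 0.32 with library size alone, 0.008 with edgeR 4 and 0.012 without number 3. In neurons Mobp became 0.030 with limma-voom, and without number 3 Mag became 0.07, Mobp 0.34, Ugt8a 0.34 and Opalin -0.035. Opalin became -0.034 with the replicate block. In the difference between fractions Cldn11 became -0.023 with edgeR 4, -0.20 with limma-voom, -0.14 with the pool block and -0.20 without number 3, and Mag 0.003 without the low-input libraries.

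Leaving out 1 library turned the sign of some values. The range of logFC was, in glia, Mobp from -1.26 to 0.012, Hapln2 from -1.11 to 0.10, Myrf from -0.74 to 0.31, Ncmap from -0.49 to 0.52, Slc17a7 from -1.36 to 0.043. In neurons it was Mbp from -0.88 to 0.38, Mag from -0.94 to 0.76, Mobp from -1.15 to 1.26, Opalin from -0.61 to 0.71, Ugt8a from -0.80 to 0.62. For the difference between fractions it was Mog from -1.30 to 0.15, Mag from -1.24 to 0.46, Mobp from -1.84 to 0.56, Cldn11 from -0.30 to 0.51, Mal from -1.19 to 0.022, Opalin from -1.03 to 0.28.

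Counts as low as 13 reads in neurons limit the precision there, and 3 pools per group limit it everywhere.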
